A study of Mus musculus with 4 samples.

Results

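Immediate early genes are transcribed within minutes of a stimulus, without new protein synthesis, because the factors that switch them on already sit in the cell. FOS and JUN family proteins pair through leucine zippers to form the transcription factor AP-1, EGR1 binds DNA through zinc fingers, and ATF3 is a stress-induced relative that mostly represses. In quiet tissue most of these transcripts are scarce and short-lived, and handling of a tissue before it is frozen is known to induce them. The genes described here were Fos, Fosb, Jun, Junb, Jund, Egr1, Ier2, Ier3, Atf3 and Btg2, taken by name from the platform's annotation. All 10 were measured, by 15 of 12422 probe sets, a probe set being a group of short probes that read the same transcript.

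The tissue was the seminal vesicle, the male accessory gland that secretes much of the seminal fluid. The glands came from 4 C57Bl/6J mice of 15 months, all Nkx3.1 +/+, so that the homeobox gene Nkx3.1 was intact in every animal. They were snap frozen, and total RNA was hybridised to Affymetrix Mu74AV2 arrays, 1 per mouse. The mice form a single group with no treated, mutant or younger counterpart, and the questions that could be asked were which of these genes gave signal and which differed between the animals. Mice are numbered 1 to 4 only to name them.

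Values are log2 expression values, so that 1 unit is a doubling, and the 4 arrays limit their precision. The arrays resembled each other, with medians from 4.95 to 4.98 and Pearson's r across probe sets from 0.992 to 0.994. All 6 measured markers of seminal vesicle epithelium were above background, with a mean level from 12.31 to 12.45. Smooth muscle markers were above it in 8 of 8 cases, luminal epithelium markers in 4 of 5, fibroblast markers in 3 of 6 and basal epithelium markers in 0 of 4. Endothelium had 1 of 5 above, mast cells 0 of 4, erythrocytes 1 of 3 and skeletal muscle 1 of 5. Among all genes the share above background was 28.2%. In whole glands, fewer cells of a type and less RNA per cell cannot be told apart. Background was judged from 106 probe sets that read 88 genes of other organs. Their 90th percentile on each array was taken as the limit, and was 6.19, 6.08, 6.10 and 6.24 in mice 1 to 4. A probe set was above background when it passed the limit on all 4 arrays. A value below it did not show that a gene was silent, and values of different probe sets were not ranked against each other, since probes differ in brightness.

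Jund, Btg2 and, by 1 of its probe sets, Junb gave signal in every mouse and varied little. Fos, Fosb, Jun, Egr1 and Ier3 stayed under the background limit in every mouse. Ier2 lay around the limit. Atf3 had the widest spread, and was highest in mouse 3 by both of its brighter probe sets. Promoter sequences of a gene of each kind are shown first, because all 3 windows share the core of the cAMP response element (CRE), the site bound by CREB and ATF family proteins. The sequences are RefSeq's, build GRCm38.p6, and cover the 250 bases before the annotated start, written 5′ to 3′ along the gene. Capitals mark the CRE core TGACGT on either strand, or the full CRE TGACGTCA where the match extends to it.

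Fos, chr12:85473640-85473889 (plus strand): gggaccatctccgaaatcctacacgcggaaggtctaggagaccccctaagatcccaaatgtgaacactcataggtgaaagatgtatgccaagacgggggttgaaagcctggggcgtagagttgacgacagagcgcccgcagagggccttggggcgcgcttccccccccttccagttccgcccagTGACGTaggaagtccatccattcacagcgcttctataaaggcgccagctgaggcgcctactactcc

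Btg2, chr1:134079156-134079405 (minus strand): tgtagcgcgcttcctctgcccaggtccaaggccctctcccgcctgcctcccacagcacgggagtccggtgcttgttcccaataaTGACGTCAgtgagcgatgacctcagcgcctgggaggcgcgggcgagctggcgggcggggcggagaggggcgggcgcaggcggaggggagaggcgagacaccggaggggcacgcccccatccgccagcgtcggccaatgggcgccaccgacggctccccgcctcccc

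Atf3, chr1:191183334-191183583 (minus strand): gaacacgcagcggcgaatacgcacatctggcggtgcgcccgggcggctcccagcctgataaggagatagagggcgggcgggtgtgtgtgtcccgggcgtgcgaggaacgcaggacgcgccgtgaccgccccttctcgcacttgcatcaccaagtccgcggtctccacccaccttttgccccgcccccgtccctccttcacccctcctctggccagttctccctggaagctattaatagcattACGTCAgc

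The core ended 61 bases before the Fos start and lay from 166 to 159 bases before the Btg2 start as the full CRE. In Atf3 it stood on the other strand, from 8 to 3 bases before the start. Promoter entries matched 8 of the 10 genes by symbol, all but Egr1 and Ier2, and the entry of each was searched on both strands. The CRE core was in 3 of the 8 windows and in 6.47% of all 32851 windows of this length. The full CRE, which contains the core, was in 1 of 8, that of Btg2, against 1.55%. The EGR1 motif GCGNGGGCG was in 2 of 8 windows, Fosb and Btg2, against 4.70%. CCAAT was in 4 of 8, Jun, Junb, Ier3 and Btg2, against 33.8%, and TATAAA in 1 of 8, Fos, against 12.4%. Neither the AP-1 motif TGANTCA nor the CArG box, which serum response factor binds, was in any of the 8 windows. Their shares of all windows were 6.75% and 1.47%. Bases farther upstream than the windows were not searched, so a motif missing here may still lie near the gene. These matches describe letters only, and their tie to the levels below was not tested.

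Fos, the founding AP-1 subunit and the best known marker of recent cell stimulation, was read by a pair of probe sets. The first had 2.81, 2.87, 2.78 and 2.86 in mice 1 to 4, a mean of 2.83 ± 0.0421 (SD, n = 4). The second had 3.08, 2.86, 3.12 and 2.92, a mean of 3.0 ± 0.127 (SD, n = 4). All 8 values were far under the limits of 6.08 to 6.24, and the first set differed by 1.06-fold between its highest and lowest mouse. The pair did not put any mouse on the same side of its mean, with 0 of 4 mice in common, so the small differences between mice were not shared by both readings.

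Fosb encodes a FOS relative that also pairs with JUN proteins. Its probe set had 5.61, 5.48, 5.71 and 5.74, a mean of 5.63 ± 0.115 (SD, n = 4), and it too was under the limit on each array. Mouse 2 was lowest. The highest and lowest mice differed by 1.19-fold.

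Among the JUN family, which can bind DNA with or without a FOS partner, the members parted. Jun itself had 5.34, 5.20, 5.25 and 5.24, a mean of 5.26 ± 0.0599 (SD, n = 4), under the limit in every mouse and with a 1.10-fold range. Jund, the member known to be expressed steadily in resting cells, had 10.17, 10.35, 10.41 and 10.21, a mean of 10.29 ± 0.113 (SD, n = 4). It lay far above the limits, in every animal, with mice 2 and 3 a little above mice 1 and 4.

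Junb, a JUN protein that often acts against JUN, was at the limit. Its first probe set, of the kind Affymetrix marked i for having fewer probes than usual, had 6.21, 6.32, 6.31 and 6.37, a mean of 6.30 ± 0.0646 (SD, n = 4), and passed narrowly on all 4 arrays. The other, marked r because its probes met relaxed rules, had 6.14, 6.11, 6.24 and 6.03, a mean of 6.13 ± 0.0858 (SD, n = 4), and passed on 2. They put mouse 4 at opposite ends, highest by the first and lowest by the second. With the stricter limit of the 95th percentile Junb no longer passed, and Jund and Btg2 still did.

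Egr1, a zinc finger factor induced by growth factors and mechanical stress, had 5.86, 6.05, 5.78 and 5.72 by its brighter probe set, a mean of 5.85 ± 0.145 (SD, n = 4). Mouse 2 came closest to its limit and did not pass. The dimmer Egr1 probe set had 3.46, 3.33, 3.36 and 3.39, with mouse 2 lowest instead of highest.

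**Figure D1:**
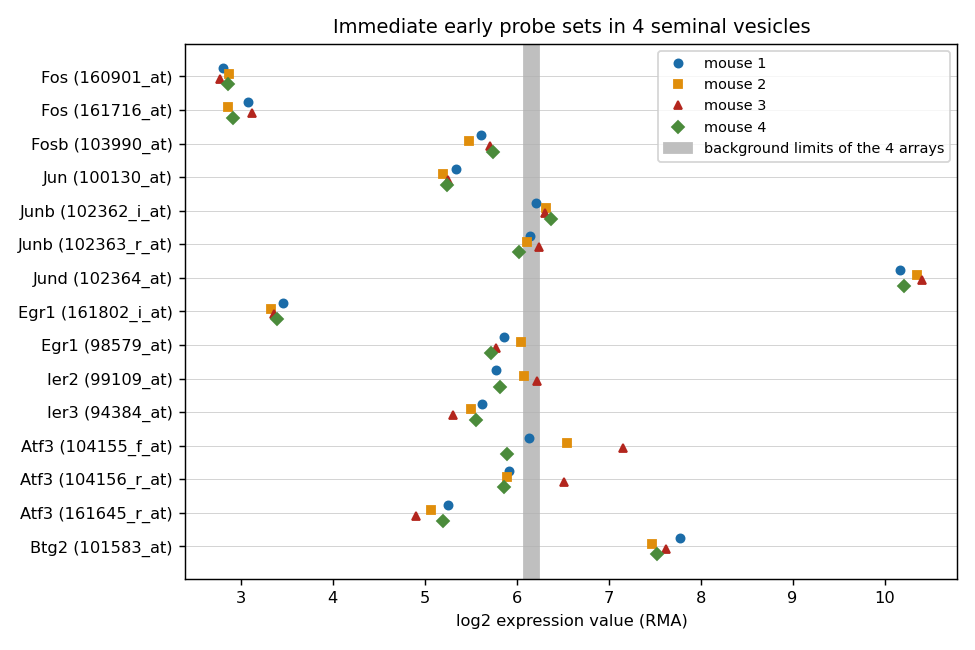
Log2 expression value (x axis) of each of the 15 probe sets (y axis) in the 4 mice, 1 marker per mouse, with the background limits of the 4 arrays, 6.08 to 6.24, as a grey band. Jund and Btg2 lie right of the band, both Fos probe sets far to its left, and a pair of the Atf3 probe sets are spread across it.

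Btg2 encodes an antiproliferative protein induced by p53 and by growth signals. It had 7.77, 7.47, 7.62 and 7.52, a mean of 7.60 ± 0.130 (SD, n = 4), and passed the limit in every mouse. Mouse 1 was highest, and the range was 1.23-fold.

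Ier2 and Ier3 are small immediate early proteins, the latter a regulator of cell survival. Ier2 had 5.78, 6.08, 6.22 and 5.82, a mean of 5.97 ± 0.210 (SD, n = 4). It passed the limit in mice 2 and 3, in mouse 2 by less than the rounding shows. Mice 1 and 4 were below it, and the range was 1.35-fold. Ier3 had 5.62, 5.50, 5.31 and 5.56, a mean of 5.50 ± 0.135 (SD, n = 4), below the limit in every mouse, and here mouse 3 was lowest. The animal with the highest Ier2 value was thus the animal with the lowest Ier3 value.

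Counted over the whole set, 3 of 15 probe sets, and 3 of 10 genes, were above background. Among all probe sets the share was 23.1% and among all genes 28.2%, so the count was close to the background. A further 8 of the 15 passed on no array, against 71.2% of all probe sets.

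Atf3, induced by many kinds of cell stress, varied most. Its brightest probe set, marked f because it can read other transcripts of a sequence family, had 6.13, 6.55, 7.16 and 5.90 in mice 1 to 4, a mean of 6.43 ± 0.552 (SD, n = 4). Mice 2 and 3 were above their limits, mice 1 and 4 below, and mouse 3 exceeded mouse 4 by 2.39-fold. The second, marked r, had 5.92, 5.90, 6.51 and 5.86, a mean of 6.05 ± 0.307 (SD, n = 4), so that mouse 3 alone stood out and alone passed its limit. The third, also marked r and under the limit throughout, had 5.25, 5.07, 4.91 and 5.20, a mean of 5.11 ± 0.152 (SD, n = 4), with mouse 3 lowest. The 2 brighter probe sets put 3 of 4 mice on the same side of their means, while the brightest and the third shared 0 of 4. The platform's annotation gives the 2 brighter probe sets the same source sequence and the third another. The brighter pair are thus not independent readings of the gene.

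**Figure D2:**
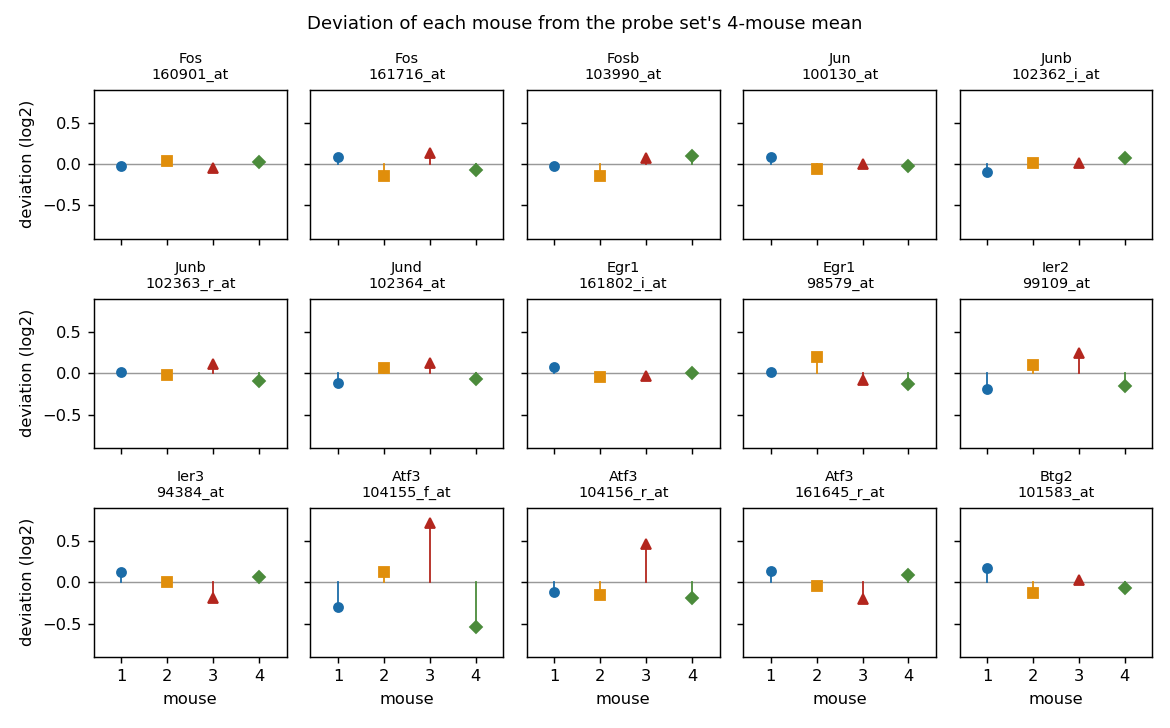
Deviation of each mouse (x axis) from the 4-mouse mean of the probe set (y axis, log2 units), 1 panel for each of the 15 probe sets. The largest deviation is that of mouse 3 in the brightest Atf3 probe set, at 0.72, and the third Atf3 probe set turns the other way, at -0.20 in mouse 3.

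Whether these spreads exceeded the general spread of the arrays was tested for all 12422 probe sets with limma's variance model, which sets each variance against a prior fitted over all probe sets. After Benjamini-Hochberg adjustment 0 of the 15 were called at 0.05, against 0.282% of all probe sets, and 2 of 15 had an unadjusted p under 0.05, against 5.44%. Both of the latter read Atf3. The brightest had an SD 4.48 times the prior SD (unadjusted p = 0.000428, adjusted p = 0.113, limma), and 0.37% of all probe sets had a larger SD. The second had an SD 2.47 times the prior SD (unadjusted p = 0.0179, adjusted p = 0.714, limma). The third Atf3 set did not come near a call (adjusted p = 0.993, limma). Leaving out mouse 3 brought the SD of the brightest set to 0.332 (unadjusted p = 0.0135, adjusted p = 0.568, limma) and that of the second to 0.0332 (unadjusted p = 0.936, adjusted p = 0.996, limma). The spread of the second set thus rested on mouse 3, while that of the first also held mouse 4, at -0.54 from its mean. When the 3 probe sets were averaged, Atf3 had 5.77, 5.84, 6.19 and 5.65 (SD 0.232, adjusted p = 0.950, limma).

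Outside Atf3, Ier2 had the next largest SD, 1.68 times the prior (unadjusted p = 0.106, adjusted p = 0.981, limma). The first Fos probe set stood at the other end, and 94.5% of all probe sets had a larger SD. Over the 15 the median SD was 0.127, beside 0.112 over all probe sets. Among all probe sets called anywhere on the array, the smallest ratio of SD to prior SD was 5.25. At the priors of these genes that ratio means an SD between 0.554 and 0.680. Spreads between mice smaller than that were not called with 4 arrays. For the brightest Atf3 set, with an SD of 0.552, the matching value was 0.647.

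**Figure D3:**
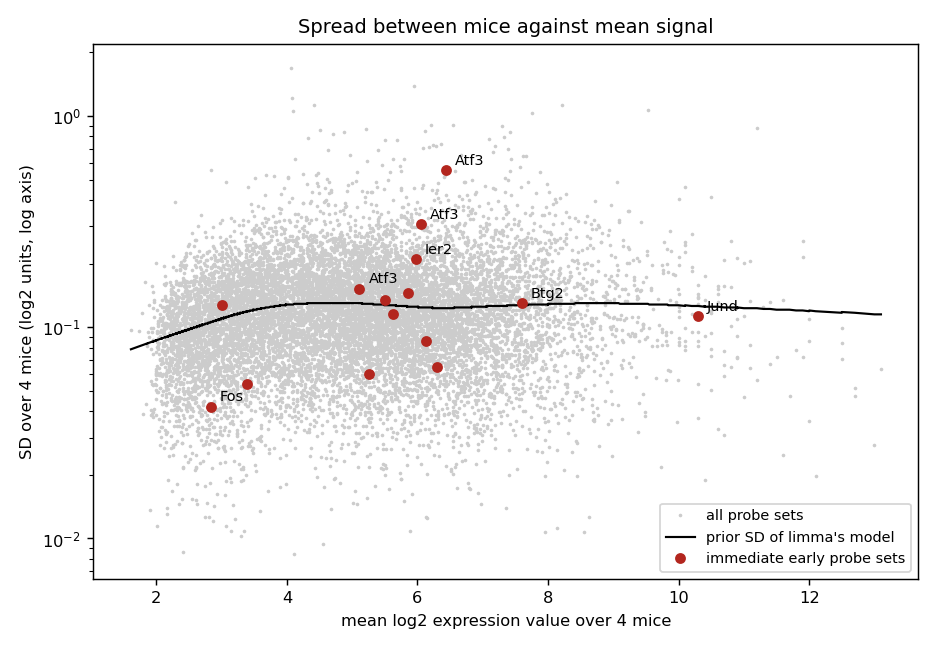
SD over the 4 mice (y axis, log2 units on a log axis) against mean log2 expression value (x axis) for all 12422 probe sets in grey, the 15 immediate early probe sets in red and the prior SD of limma's model as a line. The Atf3 probe sets with SDs of 0.552 and 0.307 lie above the line, and most of the others lie close to or under it.

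No mouse was highest or lowest in most of the probe sets. The highest value fell in mice 1 to 4 in 5, 2, 6 and 2 of the 15 probe sets, beside 25.8%, 21.6%, 26.1% and 26.5% of all probe sets. The lowest value fell in mice 1 to 4 in 3, 5, 3 and 4 cases, beside 20.7%, 36.7%, 22.2% and 20.3%. Mouse 3 was highest and mouse 4 lowest in 3 of 15, the brighter pair of Atf3 and the second Junb set, beside 7.39%. The 4 probe sets with a mean above the mean limit of 6.15 had mean deviations of -0.08, 0.02, 0.22 and -0.15 in mice 1 to 4, a range of 0.37. Without Atf3 the remaining 3 had -0.01, -0.02, 0.05 and -0.03, a range of 0.08, so most of the shift of mouse 3 came from that 1 Atf3 probe set, of the f kind. Which of the 3 Atf3 probe sets best reads the gene was not tested.

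The profiles most like that of the brightest Atf3 probe set were sought among 2831 single-gene probe sets with a mean above 6.15, by the root mean square difference of the 4 deviations. A profile with no change would have a difference of 0.478. The nearest was Cd74, the invariant chain of MHC class II, at 0.217, with 9.08, 9.47, 9.58 and 8.81 in mice 1 to 4. C1qb, a complement gene of macrophages, followed at 0.223 with 6.20, 6.32, 6.60 and 5.73. A dimmer C1qb probe set, under the limit on every array, had 4.71, 4.69, 4.22 and 4.85, and put mice 3 and 4 the other way round. H2-Ab1, an MHC class II beta chain, was at 0.236 with 7.08, 7.26, 7.53 and 6.86. Glul, the glutamine synthetase gene, and Gpd1, a glycerol phosphate dehydrogenase gene, were both at 0.239. All 5 had their highest value in mouse 3 and their lowest in mouse 4, beside 7.39% of all probe sets. They were chosen for likeness to the brightest Atf3 probe set, which has that order, so this was built into the choice. With 4 mice such likeness is a description only.

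**Figure D4:**
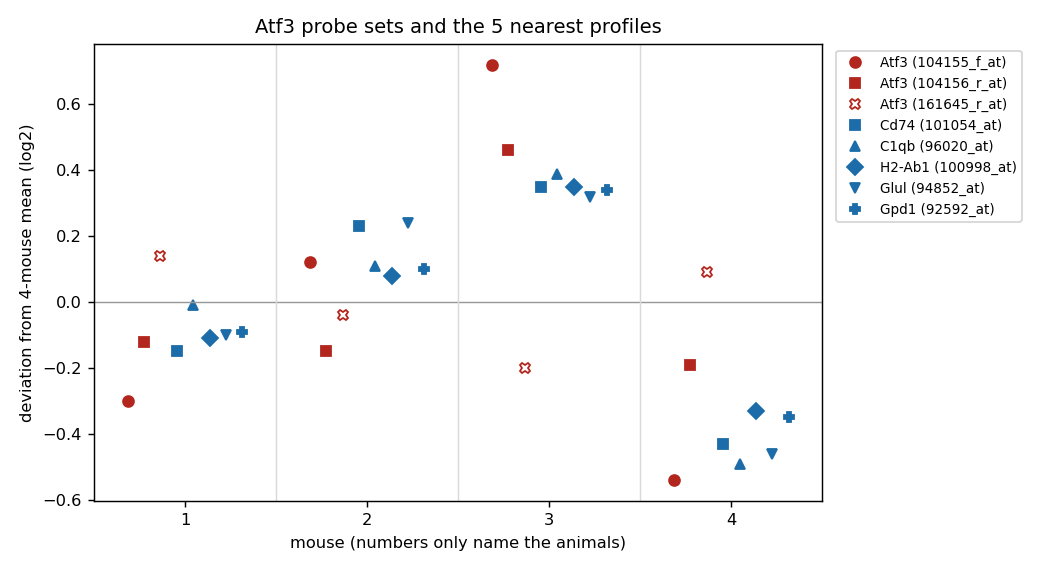
Deviation from the 4-mouse mean (y axis, log2 units) in each mouse (x axis) for the 3 Atf3 probe sets in red, the third with open markers, and the 5 nearest profiles in blue. The blue markers and the brightest Atf3 probe set are all positive in mouse 3 and negative in mouse 4, where the third Atf3 probe set has the opposite signs.

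Immune cell markers in the same animals were as follows. Of 7 macrophage markers 2 were above background, C1qa and Cd14, and the mean level of all 7 was 5.74, 5.77, 5.91 and 5.53 in mice 1 to 4. Adgre1, Cd68 and Csf1r, which define macrophages, passed the limit on no array. B and plasma cell markers had mean levels of 6.41, 6.77, 6.76 and 5.89, with 2 of 6 genes above background and 3 called by limma. The shares over all genes were 28.2% above background, here and for macrophage, neutrophil and mast cell markers, and 0.218% called. Those called were Ighm, Igha and Jchain, whose called probe sets were all lowest in mouse 4. Other members went the other way. Cd79a was highest in mouse 4, at 6.13, 5.84, 5.90 and 6.17, as was another Ighm probe set, at 4.85, 4.67, 5.37 and 6.03. For neutrophil markers 0 of 6 were above, with mean levels from 4.38 to 4.61. For mast cell markers 0 of 4 were above, with mean levels of 4.30, 4.24, 4.37 and 4.23. By limma 0 of these were called, and 2 had a probe set with an unadjusted p under 0.05, beside 6.39% of all genes. Picked after its values were seen, a Cma1 probe set had 6.17, 5.38, 6.10 and 4.85 (adjusted p = 0.0657, limma). It was under the limit on every array. The other Cma1 probe sets were lowest in mouse 2, and Kit in mouse 1. Among the other cell types, smooth muscle markers had mean levels of 9.14, 8.56, 8.72 and 8.63. Of these 8 of 8 were highest in mouse 1, beside 25.8% of all probe sets. Luminal epithelium markers had 7.03, 7.30, 6.94 and 7.19. The part of any of these cell types in the Atf3 differences was not tested. For the beta-actin control, the 3' value minus the 5' value, a sign of RNA quality, was 1.08, 0.82, 1.02 and 0.98 in mice 1 to 4. For the Gapdh control it was -0.12, -0.15, -0.15 and -0.13. The part of RNA quality in the Atf3 differences was not tested.

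Other immediate early genes, from a list of their own, held many dim members as well. Of 41 measured, 15 were above background, beside 28.2% of all genes. By limma's variance model 0 were called, beside 0.218% of genes, and 7 had a probe set with an unadjusted p under 0.05, beside 6.39%. The 3 of largest SD above the mean limit were Rhob, Mcl1 and Id3. Rhob, a small GTPase gene, had 8.32, 8.93, 8.24 and 8.33, with mouse 2 highest (adjusted p = 0.726, limma). Mcl1, a survival gene of the BCL2 family, had 6.10, 6.71, 6.11 and 6.36, and Id3, an inhibitor of basic helix-loop-helix factors, had 8.32, 7.95, 7.71 and 8.23. None of these 3 was highest in mouse 3. Of the 17 genes of this list with a mean above 6.15, however, 6, 5, 6 and 0 were highest in mice 1 to 4. The shares over all probe sets were 25.8%, 21.6%, 26.1% and 26.5%. Picked after their values were seen, Nr4a1 (4.87 ± 0.0426, SD, n = 4), Dusp1 (5.25 ± 0.181), Egr2 (4.10 ± 0.205) and Ptgs2 (2.42 ± 0.118), all classic early response genes, were under the limit on every array, as Fos was. Others of the list went the other way. The 15 above background included Zfp36, Dusp2, Nfkbia and Ppp1r15a, picked likewise.

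Upstream, the kinases of the MAP kinase cascade and the factors that bind the serum response element were above background in 2 of 18 cases, with 0 called by limma and 0 at an unadjusted p under 0.05. The shares over all genes, here and for the partner and target genes that follow, were 28.2% above, 0.218% called and 6.39% at an unadjusted p under 0.05. Those above were Araf, a RAF kinase, at 6.75, 6.75, 6.80 and 6.74, and Crebbp, a coactivator of CREB, at 6.78, 6.61, 6.64 and 6.55. Mapk14, the p38 stress kinase, had 6.31, 6.57, 6.60 and 6.15 and passed on 3 arrays. Partners of AP-1, ATF and EGR1 proteins were above in 4 of 16 cases, with 0 called by limma and 1 at an unadjusted p under 0.05. Atf4, the main factor of the integrated stress response, had 8.44, 8.78, 8.89 and 8.60. Batf, an AP-1 factor of lymphocytes, had 6.34, 6.14, 6.19 and 6.31. Cebpa passed on 3 arrays, at 6.35, 6.12, 6.39 and 6.18.

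Genes known as targets of AP-1 or EGR1 were above background in 4 of 16 cases, with 0 called by limma and 3 at an unadjusted p under 0.05. Ccnd1, the cyclin D1 gene, had 8.53, 8.62, 8.91 and 8.16 (adjusted p = 0.740, limma). By this probe set it was highest in mouse 3 and lowest in mouse 4, like the brightest Atf3 probe set. Its other probe set had 6.22, 6.41, 6.08 and 6.50 and put the same mice the other way round. Timp1, an inhibitor of matrix proteases, had 9.30, 9.48, 9.38 and 9.11. Pdgfa, a growth factor gene, had 6.36, 6.46, 6.62 and 6.60. The proteases Mmp3, Mmp9 and Mmp13, inducible by AP-1 and named after their values were seen, were under the limit on every array.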

How the data were processed

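Total RNA of 4 seminal vesicles was measured on 1 array each. The authors' deposited table gives 1 log2 value for each probe set and array. RMA is named per the submitters' processing notes. It subtracts background, normalizes arrays to each other and summarises the probes of a set, which compresses differences between dim signals. The RMA version, and which arrays shared a normalization, were not given in the sources used here. The log2 scale follows from the range of the values, 1.47 to 13.2.

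The 66 control probe sets were left out of tests, leaving 12422. Genes came from the platform annotation, matched by gene ID to RefSeq (GRCm38.p6) for 10817 of 10833 single-gene probe sets. Several genes were given for 396 probe sets and none for 1193, and these entered the test without a name. The variance of every probe set, with 3 residual degrees of freedom, was set against limma's prior (robust, with mean signal as trend, 8.06 degrees of freedom) by an upper-tail F test, with Benjamini-Hochberg adjustment at 0.05. The test was checked on simulated data. A listed gene was represented by its brightest probe set on average and was above background when any of its probe sets was.

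The genes named were all 15 probe sets of the 10 genes, the 3 most variable genes of each pathway list with mean above the mean limit, and the 5 nearest profiles. Cell type markers are given mainly as summaries, with single immune cell markers named beside the Atf3 values. Further genes are said in the text to be picked after their values were seen, or are the few members behind a small count. The genes, lists, rules and alternatives were chosen with earlier results of these data known. The labels do not give litter, cage or hybridisation batch. P-values describe the spread between these 4 samples. Software was R 4.3.3, limma 3.58.1, Python 3.11.15 and matplotlib 3.10.9.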

Additional observations from a re-analysis of the deposited data

Results flagged for a closer look

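The second Atf3 probe set stood apart in mouse 3, at 6.51 against 5.92, 5.90 and 5.86, with a gap to the nearest mouse of 0.899 of the whole range, above Dixon's critical value for 4 samples. Rhob was flagged in the same way in mouse 2, at 8.93 against 8.32, 8.24 and 8.33. These were 2 of 54 probe sets checked, and 5.09% of all probe sets on the arrays had such a gap, close to the rate that chance gives.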

How the results depend on the processing

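The count of 0 called probe sets among the 15 held under both rescalings of the arrays and either change of the prior fit (limma). It also held when the probe sets of each gene were averaged, and without each mouse in turn. With the filter on dim probe sets it was 0 too. There 0 of all 3188 probe sets tested were called, so that setting says nothing of these genes in particular. The brightest Atf3 probe set came closest, with adjusted p from 0.0782 to 0.568 over its 9 alternatives. The count of probe sets above background was 3 in every rescaling and without each mouse, 4 by the mean over the arrays and 2 with the 95th percentile as limit. It rose to 9 at the 75th percentile and to 11 with each array's median, where 38.2% and 47.0% of all probe sets passed. Both Fos probe sets stayed below in each of these settings. The range of the mean deviation over the mice, 0.37, was 0.16 with all 15 probe sets, 0.18 by the median and 0.17 to 0.37 without each mouse in turn, the lowest without mouse 3. Leaving out Atf3, an alternative chosen after seeing the data, gave 0.08. No paired analysis was possible because the mice form a single group. With 4 arrays and probe sets near the background limit, small differences could not be seen.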

Other observations

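Heat shock, hypoxia and metal response genes, measured as companions of the immediate early genes, were above background in 10 of 19 cases, beside 28.2% of all genes. By limma's variance model 0 of the 19 were called, beside 0.218% of all genes. A further 7 had a probe set with an unadjusted p under 0.05, beside 6.39% of all genes. Of the 11 with a mean above 6.15, 5 were highest in mouse 3, beside 26.1% of all probe sets. The metallothionein genes Mt1 (7.62, 7.05, 8.17 and 7.52 in mice 1 to 4) and Mt2 (7.75, 6.79, 7.97 and 7.11) were lowest in mouse 2 (adjusted p = 0.244 and 0.132, limma). Hsp90aa1, a cytosolic chaperone gene, was highest there, at 8.46, 9.06, 8.90 and 8.51 (adjusted p = 0.801, limma). Picked after its values were seen, the matricellular early gene Ccn2 had 4.30, 4.96, 4.12 and 3.84, under the limit in every mouse, with mouse 2 highest (unadjusted p = 0.00162, adjusted p = 0.237, limma).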
